A study of Mus musculus with 8 samples.

Results

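The Hox genes are the homeobox genes of the Hoxa, Hoxb, Hoxc and Hoxd clusters. Their PET ends were read here from RNA polymerase II (Pol II) ChIA-PET of mouse liver. Members were all protein-coding RefSeq genes (GRCm38) whose symbol is Hoxa, Hoxb, Hoxc or Hoxd followed by a number. The rule found 39 of 20665 autosomal protein-coding genes. Hoxa has 11 members on chromosome 6, Hoxb has 10 on chromosome 11, Hoxc has 9 on chromosome 15 and Hoxd has 9 on chromosome 2. Each cluster was taken from its first to its last member with 5 kb on either side, as chr6:52150367-52265880 (Hoxa), chr11:96189316-96373254 (Hoxb), chr15:102916131-103041856 (Hoxc) and chr2:74663225-74770142 (Hoxd).

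ChIA-PET pulls down crosslinked chromatin with an antibody, here 8WG16 against Pol II, ligates DNA ends held together, and sequences both sides of each junction as a paired-end tag (PET). C57BL/6 mice of 3 to 6 months lived under 12 h of light and 12 h of dark with food at all times, and the chromatin of 3 to 7 livers went into each immunoprecipitation. Livers were collected 6 h (ZT06, day) or 18 h (ZT18, night) after lights on. Experiment JM08 has 4 libraries, 2 of each time, and experiments JM11 and JM12 have 2 libraries each, 1 of each time. JM08 and JM12 were crosslinked with 1% formaldehyde plus 1.5 mM EGS, a protein crosslinker with a longer reach, and JM11 with 1% formaldehyde alone. The deposited table names the experiment of a PET but neither its library nor its time, so day and night could not be compared and each experiment is 1 pool. Whole liver was used, and fewer cells of a type cannot be told apart from less signal per cell.

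Hox proteins are transcription factors that give position along the body axis of the embryo. Their order along a cluster follows their order of use from head to tail, with paralog groups 1 to 3 at the anterior end of a cluster and groups 9 to 13 at the posterior end. Polycomb complexes, which place repressive histone marks, keep Hox genes off where they are not used, and Trithorax complexes keep them active where they are.

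Values are PET ends over a stretch divided by the mean number over the same length of nuclear chromosomes in the same experiment, called relative density, so 1 is the mean. Experiments were also summed. Intervals are exact Poisson 95% intervals, and a value is called above or below the mean where its interval excludes 1. They cover counting error only, with no replicate check. JM08, JM11 and JM12 held 474466, 1438852 and 837971 nuclear PETs, or a mean of 0.349, 1.06 and 0.616 ends per kb. Hepatocyte markers were high, as the liver label says: 7 of 8 were above the mean when summed, with a median of 16.8, and Alb, the gene of serum albumin, stood at 105 in JM08, 9.26 in JM11 and 15.8 in JM12. The exception was Serpina1a (1.32), which belongs to a family of near-identical copies. Summed medians were 1.43 over 4 Kupffer, 1.46 over 5 endothelial, 1.27 over 6 stellate and mesenchymal, 1.63 over 4 cholangiocyte and 1.31 over 3 leukocyte markers. Their part in the Hox values was not tested.

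Start sites of Hox genes had no peak of Pol II PET ends like that over all promoters, although their CG content was like that of promoters in general. RefSeq promoter windows (GRCm38.p6), from 250 bases before to 50 after the start, were matched for 22 of the 39 members, with 24 windows in all, 10 in Hoxa, 3 in Hoxb, 1 in Hoxc and 10 in Hoxd. Among the members with no window matched were Hoxa4, Hoxb2, Hoxb3, Hoxb5, Hoxb6, Hoxb7, Hoxb9, Hoxb13, Hoxc5, Hoxc6, Hoxc8, Hoxc9, Hoxc10, Hoxc11, Hoxc12 and Hoxc13. The windows printed here show the range, with CG in capitals. Hoxd3 had the most PET ends within 1 kb of its start and Hoxa3 the fewest, and both have 20 CG. Hoxa13 has the most CG (45), and Hoxd4 is among those with the fewest (4). Hnrnpa2b1, an RNA-binding protein gene on the chromosome of Hoxa, is shown for contrast, with 33 CG.

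Hoxd3 (chr2:74711743-74712042, plus strand): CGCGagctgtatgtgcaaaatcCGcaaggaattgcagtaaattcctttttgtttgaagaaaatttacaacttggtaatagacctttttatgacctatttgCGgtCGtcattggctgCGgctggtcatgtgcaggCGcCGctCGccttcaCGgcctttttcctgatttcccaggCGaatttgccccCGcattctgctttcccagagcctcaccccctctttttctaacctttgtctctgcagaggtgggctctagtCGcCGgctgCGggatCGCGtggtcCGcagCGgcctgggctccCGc
Hoxa3 (chr6:52213018-52213317, minus strand): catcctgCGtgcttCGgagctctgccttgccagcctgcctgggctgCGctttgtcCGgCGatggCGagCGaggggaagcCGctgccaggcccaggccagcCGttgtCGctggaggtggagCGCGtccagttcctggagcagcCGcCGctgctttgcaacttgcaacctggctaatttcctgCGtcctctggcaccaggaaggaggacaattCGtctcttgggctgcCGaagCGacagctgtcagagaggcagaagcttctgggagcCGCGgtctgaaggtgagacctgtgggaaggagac
Hoxa13 (chr6:52260831-52261130, minus strand): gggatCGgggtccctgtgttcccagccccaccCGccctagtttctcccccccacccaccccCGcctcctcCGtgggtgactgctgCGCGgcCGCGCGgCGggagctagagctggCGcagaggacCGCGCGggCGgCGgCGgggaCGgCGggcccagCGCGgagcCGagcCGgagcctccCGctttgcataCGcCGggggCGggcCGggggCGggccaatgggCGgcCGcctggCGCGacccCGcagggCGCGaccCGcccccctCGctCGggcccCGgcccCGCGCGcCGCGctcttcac
Hoxd4 (chr2:74721728-74722027, plus strand): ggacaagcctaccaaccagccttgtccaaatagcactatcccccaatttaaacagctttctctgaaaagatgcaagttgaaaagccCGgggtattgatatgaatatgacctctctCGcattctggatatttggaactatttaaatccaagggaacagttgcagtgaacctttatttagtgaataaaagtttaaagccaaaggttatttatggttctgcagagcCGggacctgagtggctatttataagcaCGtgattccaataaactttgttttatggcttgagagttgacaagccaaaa
Hnrnpa2b1 (chr6:51469796-51470095, minus strand): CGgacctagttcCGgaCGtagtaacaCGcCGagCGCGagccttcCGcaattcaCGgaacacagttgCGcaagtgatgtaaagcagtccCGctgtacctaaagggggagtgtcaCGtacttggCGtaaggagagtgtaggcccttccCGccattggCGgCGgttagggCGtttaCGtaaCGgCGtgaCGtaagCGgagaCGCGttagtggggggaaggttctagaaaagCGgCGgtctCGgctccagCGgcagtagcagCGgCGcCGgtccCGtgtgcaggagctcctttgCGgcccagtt

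Within 1 kb of its start Hoxd3, a gene used in the neck vertebrae, held 0 ends in JM08, 3 in JM11 and 7 in JM12, a summed relative density of 2.47 (1.19 to 4.55). Hoxa3, needed for thymus and parathyroid, held 1, 1 and 0 ends, or 0.494 (0.0599 to 1.79). Hoxa13, a gene of digits and genital tract, held 0, 2 and 3 ends, or 1.24 (0.401 to 2.88), with the richest CG content of the set. Hoxd4 held 1, 1 and 4 ends, or 1.48 (0.544 to 3.23). Hnrnpa2b1 held 38, 33 and 28 ends, or 24.5 (19.9 to 29.8). The 4 Hox windows thus lay at 10 ends or fewer over all experiments, against 99 for Hnrnpa2b1. It is the highest start on the list of cluster neighbours described below. Starts on that list ran down to 3 to 5 ends at Snx10 and 2 at Evx1.

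Over all 24 Hox start sites the relative density was 1.19 (0.73 to 1.85, 20 ends) in JM08, 1.10 (0.833 to 1.43, 56 ends) in JM11 and 2.20 (1.70 to 2.80, 65 ends) in JM12. Over 20085 promoters of 16457 genes it was 7.78, 2.43 and 4.37. Summed, Hox starts had 1.45 (1.22 to 1.71) and all promoters 3.95 (3.93 to 3.96). The intervals of Hox starts and all promoters were apart in each experiment. With these 24 starts the Hox interval lay above 1 in JM12 only. With the annotated starts of all 39 members it did in each experiment. No Hox start had more than 10 ends or fewer than 2 over all experiments. In JM08, 14 of 24 had no end, against 30.6% of all promoters. Summed density was over 1 at 17 of 24 Hox starts (70.8%), and at 74.7% of all promoters. The share over 1 was close to that of all promoters and the summed height was not: the summed median was 1.48 for Hox starts and 2.23 for all, and 21 of 24 Hox starts lay under the latter. Within single experiments fewer lay under the median of all promoters: 17 of 24 in JM08, 16 in JM11 and 13 in JM12.

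The median CG content was 14.5 per window for Hox and 14 for all, and 11 of 24 Hox windows (45.8%) and 46.0% of all windows had 16 or more. The motif TATAAA, searched on both strands and sharing no letters with CG, occurred in 4 of 24 Hox windows (16.7%) and in 12.7% of all. Over all promoters the density was higher with more CG: the summed value was 1.45 for 0 to 5 CG, 3.24 for 6 to 15 and 6.00 for 16 or more. The 11 CG-rich Hox windows stood at 1.62 (1.27 to 2.04) and the other 13 at 1.31 (1.02 to 1.66). By experiment, the CG-rich Hox windows had 1.69, 1.03 and 2.58, where all CG-rich promoters had 12.4, 3.44 and 6.77. Each of the 11 lay under the class median (4.70) when summed, as in JM08 and JM11, and 10 of 11 did in JM12.

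**Figure D1:**
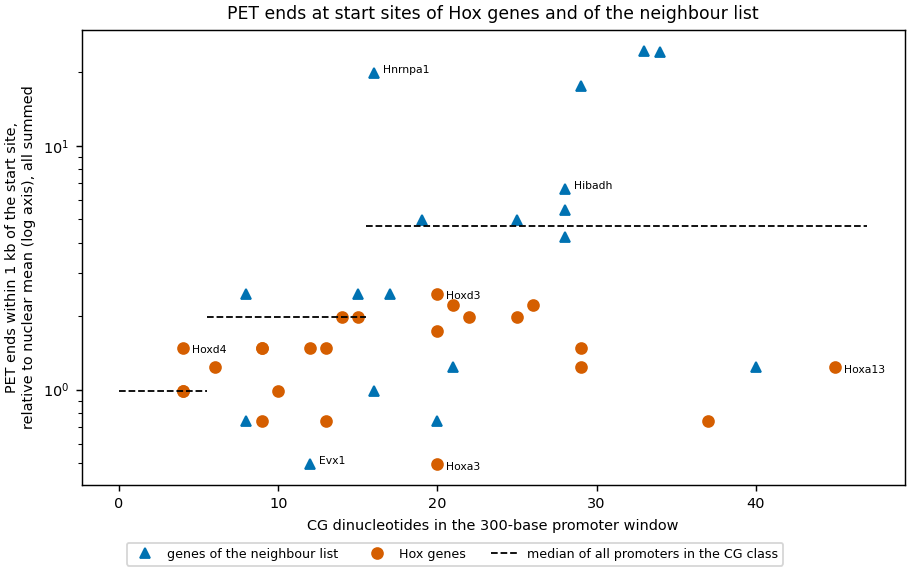
Each point is a promoter: CG dinucleotides in its 300-base window (horizontal) against summed PET ends within 1 kb of its start, relative to the nuclear mean (vertical, log axis). Hox genes (circles) stay between 0.494 and 2.47 at every CG number, genes of the neighbour list (triangles) reach 24.5 (Hnrnpa2b1, outside the 100 kb flanks), and the dashed lines are the medians of all promoters in a CG class (0.989, 1.98 and 4.70).

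Promoters of other developmental homeobox genes, such as Pax6 and the Dlx genes, had values close to those of Hox. Their 35 windows (30 genes) had a summed density of 1.71 (1.5 to 1.94), and all 27 of them with 16 or more CG lay under the class median. Promoters of olfactory receptors, genes of the nose, had 0.943 (0.912 to 0.974) over 942 windows with a median of 1 CG. By experiment they had 0.925, 1.03 and 0.802, so the interval of the 24 Hox starts was apart from theirs in JM12 and not in JM08 or JM11. With the annotated starts of all 39 members it was apart in each experiment. Those Hox intervals began at 1.05, 1.17 and 1.34, and the olfactory ones ended at 1.00, 1.08 and 0.855. Hepatocyte marker promoters had 109, 17.1 and 20.1 over 7 windows of 6 genes, above Hox starts in each experiment.

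Some genes on the list of cluster neighbours, which reaches past the 100 kb flanks, did have start site peaks. Hnrnpa1 and Cbx5, beyond Hoxc, start close together in opposite directions and share ends, and the Hnrnpa1 start had 53.0 in JM08, 9.45 in JM11 and 18.7 in JM12. Beside Hoxd, the Mtx2 start had 10.0, 2.84 and 5.68, above 1 in each experiment. The Lnpk start had 17.2, 1.89 and 3.25, and its interval excluded 1 in JM08 only. Skap2, past the anterior end of Hoxa, had 11.5, 1.89 and 4.06, above 1 in JM08 and JM12. Evx1 and Evx2, the homeobox genes at the posterior ends of Hoxa and Hoxd, had 0.494 and 0.989 summed, like the Hox starts they adjoin. Low starts on the list were not limited to homeobox genes. Summed values were 0.742 to 1.24 at the Snx10 starts and 0.742 at Ttll6. Calcoco1 and Smug1 each had 2.47, the value of the highest Hox start. The 18 windows of the neighbour list together had 15.6, 3.89 and 7.31 by experiment, from 506 ends, some of them counted for more than 1 start. These ends were uneven: the Hnrnpa2b1 starts held 99 and 98, Hnrnpa1 80 and a Cbx5 start 71. The medians of the windows were lower, 6.45, 1.89 and 4.06 by experiment.

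**Figure D2:**
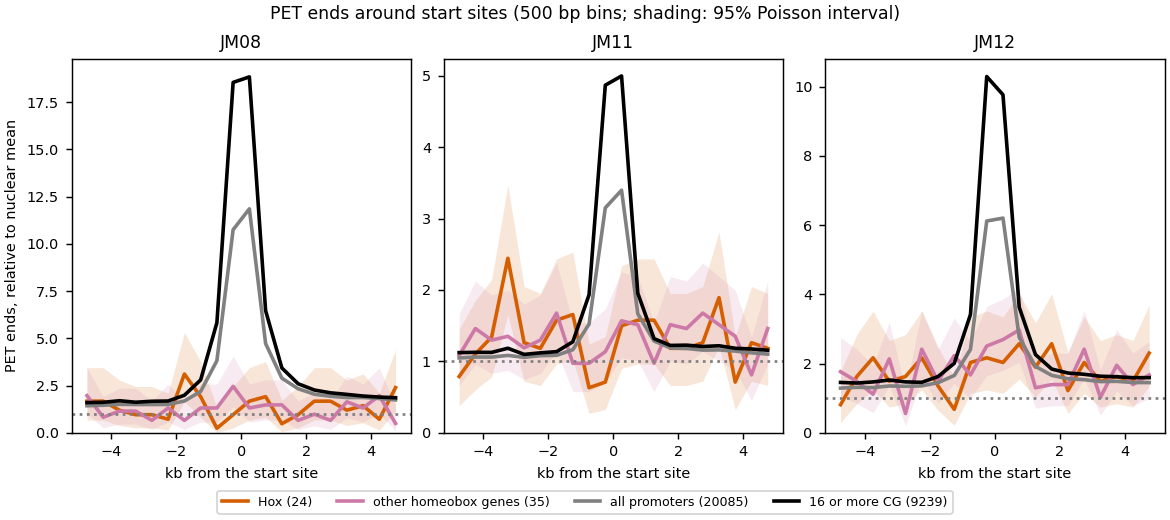
PET ends in 500 bp bins from 5 kb before to 5 kb after the start site, relative to the nuclear mean, in each experiment (vertical scales differ between panels). All promoters and those with 16 or more CG peak at the start, while the 24 Hox and the 35 other homeobox windows show no peak of like height; shading is the 95% interval.

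The profile around the start gives the same picture. In the 500 bases after the start, Hox genes had 1.69 (1.21 to 2.29) summed and all promoters 5.71. In the 500 bases before it, the values were 1.20 (0.801 to 1.72) and 5.36. Between 4 and 4.5 kb past the start, Hox genes stood at 1.24 and all promoters at 1.34. Summed Hox bins ran from 0.948 to 1.94 over the whole 10 kb, and the gap to all promoters was widest in the 500 bases on either side of the start. It reached further: from 1000 to 500 bases before the start, Hox genes had 0.989 (0.634 to 1.47) summed and all promoters 2.19. From 500 to 1000 bases after it, the values were 1.94 (1.42 to 2.58) and 2.53. Using the annotated start of all 39 members, on the strand of their cluster, the density within 1 kb was 1.47 (1.05 to 2.00) in JM08, 1.42 (1.17 to 1.70) in JM11, 1.69 (1.34 to 2.10) in JM12 and 1.51 (1.32 to 1.71) summed.

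Over their whole spans, start sites included, the clusters held modestly more PET ends than the nuclear mean, spread along their length. The 4 clusters together had a relative density of 1.25 (1.09 to 1.42) in JM08 from 231 ends, 1.36 (1.27 to 1.46) in JM11 from 767 and 1.72 (1.58 to 1.86) in JM12 from 562. Summed values were 1.59 (1.43 to 1.75) for Hoxc, 1.55 (1.39 to 1.71) for Hoxa, 1.49 (1.33 to 1.66) for Hoxd and 1.28 (1.17 to 1.40) for Hoxb. The intervals of the first 3 overlap widely. Gene bodies had 1.54 (1.44 to 1.65) and the stretches between genes 1.35 (1.25 to 1.45). In Hoxc the order was the other way, 1.54 in bodies and 1.63 between. No stretch of 100 bases held more than 5 of the ends of a cluster, so the counts do not come from single stacks.

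The 100 kb on either side of each cluster had a summed density of 1.20 (1.15 to 1.25). The clusters exceeded these flanks by a ratio of 1.15 (0.965 to 1.37) in JM08, 1.14 (1.04 to 1.25) in JM11 and 1.36 (1.21 to 1.53) in JM12. Against the flanks, the JM08 difference was within counting error. Beside Hoxc the flanks were themselves raised, 1.34 before and 1.39 after the cluster.

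In 5 kb windows, 27 of 109 were above the mean (24.8%) when summed, and 1 was below. Over 480593 windows of all autosomes, 10.6% were above and 11.4% below. Of the 54935 autosomal windows below, 22278 held no end in any experiment, and no Hox window was empty when summed. Whether reads can be placed in such empty windows was not tested. The median Hox window held 15 ends, with a range of 2 to 26. The densest held 26 each: the window over Hoxd10 and Hoxd9, with 5 ends in JM08, 12 in JM11 and 9 in JM12, and the window between Hoxc13 and Hoxc12, with 3, 18 and 5. The first was above the mean in JM11 and JM12, and the second in JM11. The window below the mean held 2 ends and lies between Hoxb13 and Hoxb9. That gap of 74.7 kb, the largest between neighbouring members, had 0.691 (0.41 to 1.09) in JM08, 1.00 (0.792 to 1.25) in JM11 and 1.30 (0.995 to 1.68) in JM12, and no interval excluded 1. The 15.9 kb between Hoxc12 and Hoxc11 differed between experiments: 0 ends in JM08 (upper bound 0.665), 1.19 in JM11 and 2.76 (1.82 to 4.01) in JM12. These gaps were singled out after their values were seen.

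**Figure D3:**
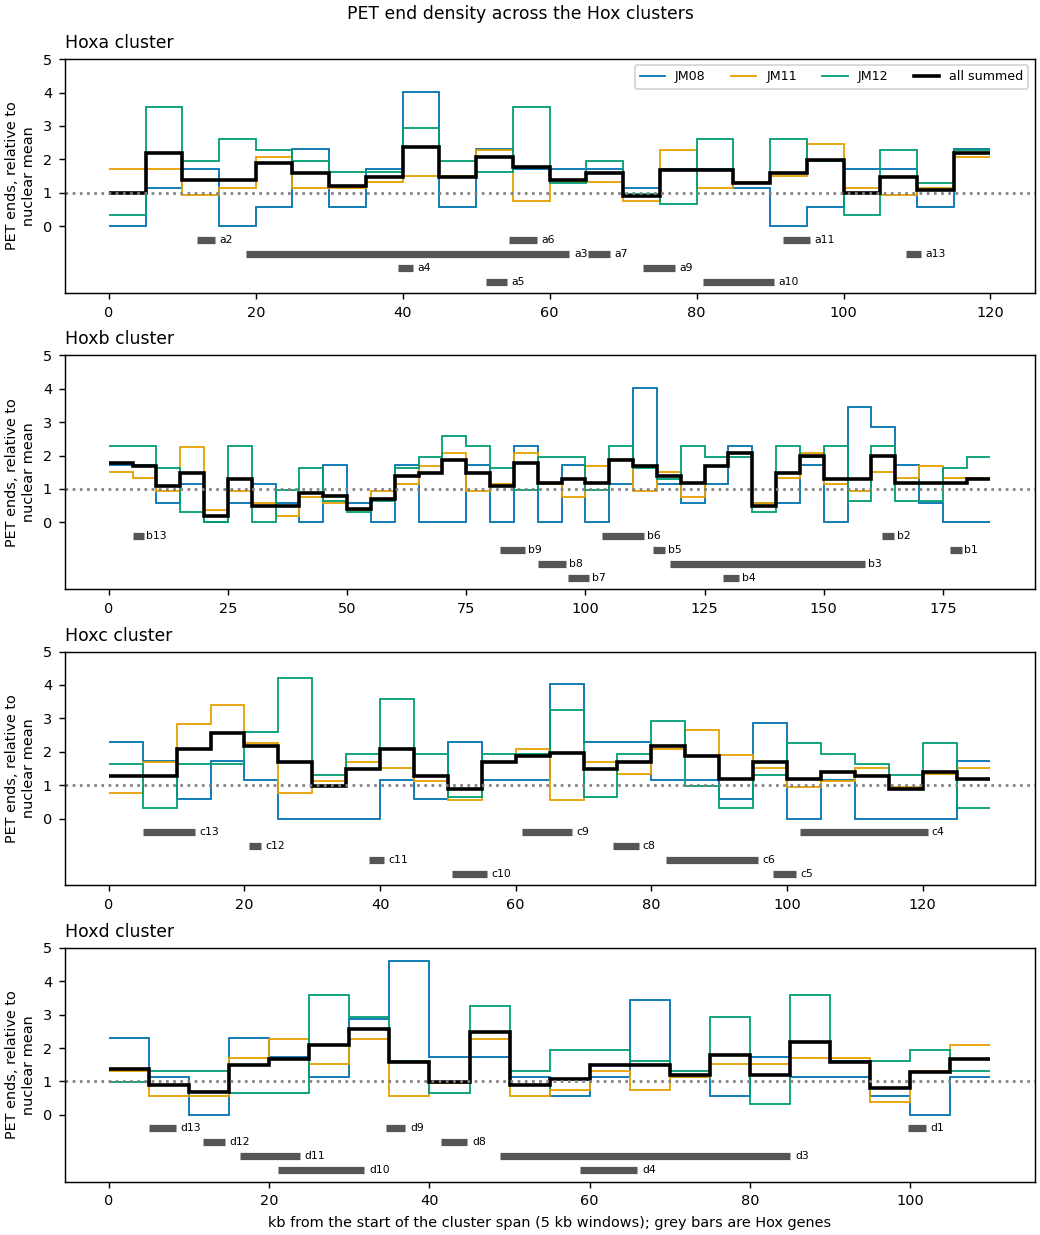
Relative density of PET ends in 5 kb windows along each cluster, by experiment (coloured lines) and summed (black), with the Hox genes shown as grey bars labelled without the prefix Hox. Summed values stay between 0.198 and 2.57, with no window standing far above its cluster, and the lowest lies between b13 and b9.

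Per gene, taken with 2.5 kb on either side, 23 of 39 Hox genes were above the mean when summed, against 58.2% of autosomal protein-coding genes, a share near this background (59.0%). None was below, against 10.2%. The number above was 14 without JM11, 13 without JM12 and 15 when genes were taken with no flank. Shares of all genes were not computed in these settings, so these counts cannot be set against 58.2%. In JM08, 6 were above (background 35.2% above and 5.18% below), in JM11 8 (33.6% and 8.81%) and in JM12 15 (49.5% and 7.1%), with none below in each. Median density was 1.37, 1.40 and 1.78 for Hox genes and 1.27, 1.22 and 1.46 for all genes. Summed, it was 1.52 for Hox genes, from 0.886 to 2.18, and 1.33 for all, from 0 to 33.5. By median and range, Hox genes thus sit slightly over the middle of the distribution with neither tail. Calls above or below depend on gene length and depth, and the shares of all genes were not matched for length. In JM08, Hoxb1 held 1 end with an upper bound of 2.13, so it was not called below. The absence of members called below is thus weak evidence for short genes. Density was over 1 in every experiment for 21 of 39, and for 49.9% of all genes. Of the 1218 ends in Hox gene windows, 296 fall in more than 1. Hoxa3, Hoxb3 and Hoxd3 have long annotated spans that cover other members, and the flanks of many adjacent members overlap.

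Anterior members, groups 1 to 3, had a summed median of 1.42 with 4 of 8 above the mean. Hoxa3 was above in every experiment, with 27 ends and 1.58 (1.04 to 2.30) in JM08, 74 and 1.43 (1.12 to 1.79) in JM11, and 64 and 2.12 (1.63 to 2.71) in JM12. Its span covers Hoxa4, Hoxa5 and Hoxa6, whose ends it shares. Hoxa2, which patterns the hindbrain and pharyngeal arches, was lowest in its cluster, with 3, 8 and 8 ends and 1.16, 1.02 and 1.75. Hoxb1, a hindbrain gene, had 1, 11 and 6 ends, or 0.382, 1.39 and 1.30, and no interval excluded 1.

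Central members, groups 4 to 8, had a summed median of 1.64 with 10 of 15 above. Hoxa4 was the highest of all members at 2.18 (1.48 to 3.10). It held 8 ends in JM08 (3.27), 10 in JM11 (1.35) and 13 in JM12 (3.01), so it was above the mean in JM08 and JM12 and not told from it in JM11. Hoxa6 had 7, 13 and 13 ends, or 2.28, 1.40 and 2.40, and was above the mean in JM12. In Hoxb the highest was Hoxb4, known in blood stem cells, with 4, 16 and 11 ends and 1.37, 1.81 and 2.13. Hoxb5 had 7, 11 and 8 ends, or 2.64, 1.37 and 1.71, and Hoxb7 was lowest in Hoxb with 3, 12 and 7, or 0.90, 1.19 and 1.19. Hoxc4 held 3 ends in JM08 (0.362), 30 in JM11 (1.19) and 29 in JM12 (1.98, 1.33 to 2.85). Of these, the JM12 interval excluded 1.

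Posterior members, groups 9 to 13, had a summed median of 1.53 with 9 of 16 above. Hoxd10, a gene of limbs and lumbar motor neurons, was the other member above in every experiment and the steadiest of the high ones. The share of all genes above in every experiment is not given here, so Hoxa3 and Hoxd10 cannot be set against it. Hoxd10 held 12 ends in JM08 (2.17, 1.12 to 3.80), 34 in JM11 (2.03, 1.41 to 2.84) and 23 in JM12 (2.36, 1.5 to 3.54). Its neighbour Hoxd9 had 10, 5 and 9 ends, or 3.85, 0.635 and 1.96, with JM08 high and JM11 low. Hoxd13 and Hoxd12, digit genes at the posterior end, were the only members under 1 when summed. Hoxd13 had 4, 6 and 5 ends (0.886 summed, 0.496 to 1.46) and Hoxd12 had 1, 6 and 7 (0.90, 0.492 to 1.51), so neither was told from the mean. In Hoxc, Hoxc12 had 2, 17 and 9 ends, or 0.846, 2.37 and 2.15. Hoxc9, a gene of thoracic identity, had 10, 20 and 20, or 2.31, 1.52 and 2.62. Hoxc10 was lowest there with 7, 9 and 9, or 1.99, 0.843 and 1.45. Hoxa9, known from blood progenitors and leukaemia, had 5, 14 and 5, or 1.55, 1.43 and 0.876.

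**Figure D4:**
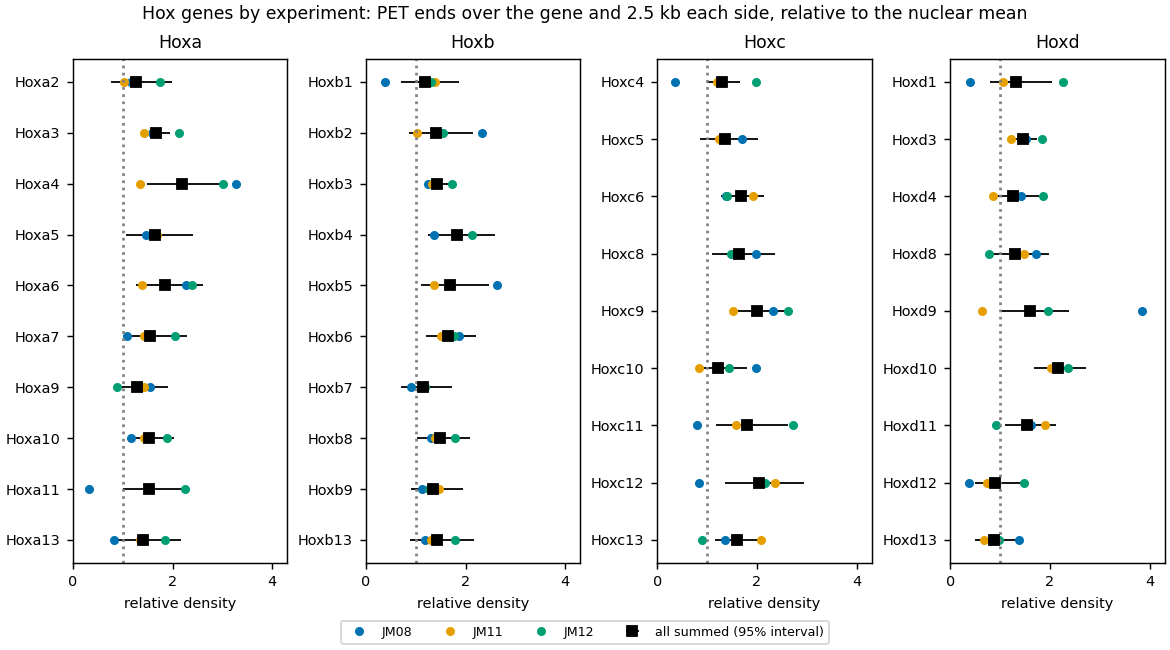
Relative density of Hox genes with 2.5 kb on either side, by experiment (coloured dots) and summed (black squares with the 95% interval), ordered by paralog group within each cluster. Summed values run from 0.886 (Hoxd13) to 2.18 (Hoxa4), and JM08, the shallowest experiment, scatters the most.

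Genes whose products act on or with Hox genes had summed list medians no higher than the Hox median of 1.52. Within single experiments this order did not hold for every list. In JM08 the median was 1.98 for Polycomb genes, 2.63 for Trithorax genes and 1.15 for Hox cofactors, against 1.37 for Hox genes. In the same order, JM11 had 1.19, 1.22 and 1.45 against 1.40. JM12 had 1.85, 1.66 and 1.498 against 1.78. Some single genes on these lists held more ends than the Hox genes. Of 20 Polycomb genes found, 16 were above the mean when summed, with a median of 1.51. Cbx8, a chromodomain subunit, had 4.78, 2.36 and 4.73 by experiment, and Bmi1 had 3.73, 2.14 and 3.00. Suz12, a core subunit of the methylating complex, was lowest at 0.946 summed. Of 9 Trithorax genes, 8 were above, with a median of 1.5. Kdm6b, a demethylase of the Polycomb mark, had 9.18, 2.68 and 4.54, Kmt2b had 5.35, 2.21 and 3.87, and Kmt2a had 2.63, 1.45 and 2.02. Dpy30 was lowest at 1.11 summed. Of 9 Hox cofactors (Pbx, Meis and Pknox genes), 7 were above, with a median of 1.44. Pbx2 had 4.24, 1.96 and 3.20, and Pbx4 was lowest at 0.817 summed. These lists were chosen for their known roles, and background is 58.2% as above.

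Of the other developmental homeobox genes 24 of 42 were above when summed (57.1%), like Hox near the share of all genes (58.2%). None was below, against 10.2% of all genes, and the median was 1.42. By experiment 4.76%, 26.2% and 57.1% were above in JM08, JM11 and JM12. Hox genes had 15.4%, 20.5% and 38.5%, and all genes 35.2%, 33.6% and 49.5%. Olfactory receptor genes had a median of 0.917, with 65 of 1104 above and 167 below. Of 17 genes on the neighbour list 12 were above, with a median of 1.36. Hnrnpa2b1 had 14.5, 3.04 and 6.78, Hnrnpa1 had 14.9, 2.41 and 5.39, and Nfe2, a blood transcription factor gene beyond Hoxc, had 10.2, 2.05 and 3.64, all above the highest Hox gene of the same experiment except Nfe2 in JM11. Snx10 was the lowest of the list at 0.944.

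Experiments differed at the Hox clusters. Relative density in JM12 was 1.26 times that in JM11 (1.13 to 1.40) and 1.38 times that in JM08 (1.18 to 1.61), while JM08 was 0.913 times JM11 (0.785 to 1.06). This order holds with the nuclear mean as reference. Relative to the median 5 kb window with an end, the clusters had 2.17 in JM08, 1.20 in JM11 and 1.76 in JM12. The median density of all genes was also highest in JM12, at 1.46 against 1.27 in JM08 and 1.22 in JM11. The mean of the dual-crosslinked pools exceeded JM11 by 0.117, which is given as a description, since an exact two-sided permutation test of 2 pools against 1 cannot go below 0.333. Crosslinking and experiment cannot be told apart. Of 39 Hox genes 21 were highest in JM12, 11 in JM08 and 7 in JM11. Of all genes 36.4% were highest in JM12, 43.7% in JM08 and 19.9% in JM11.

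The JM12 excess was larger among short PETs, whose ends lie within 8 kb of each other and can come from a single fragment. Counted once each, the clusters held 66 such PETs in JM12, a relative density of 2.73 (2.11 to 3.47), 29 in JM08 (1.39, 0.929 to 1.99) and 23 in JM11 (1.31, 0.832 to 1.97). JM12 was 2.08 times JM11 (1.28 to 3.50) and 1.97 times JM08 (1.25 to 3.16). Short PETs gave 23.3% of the cluster ends in JM12, where they gave 14.8% of all nuclear ends. In JM08 the shares were 25.1% and 22.5%, and in JM11 6.00% and 6.23%. The median distance of the short PETs in JM12 was 324.5 bp in the clusters and 230 bp in the genome. By cluster the JM12 value was 3.68 (2.28 to 5.62) in Hoxc, 3.43 (2.03 to 5.42) in Hoxa, 2.88 (1.58 to 4.84) in Hoxd and 1.56 (0.828 to 2.66) in Hoxb. Ends whose partner is on another chromosome gave 1.19 (1.02 to 1.39) in JM08, 1.37 (1.27 to 1.47) in JM11 and 1.56 (1.41 to 1.72) in JM12, so JM12 was highest there as well.

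**Figure D5:**
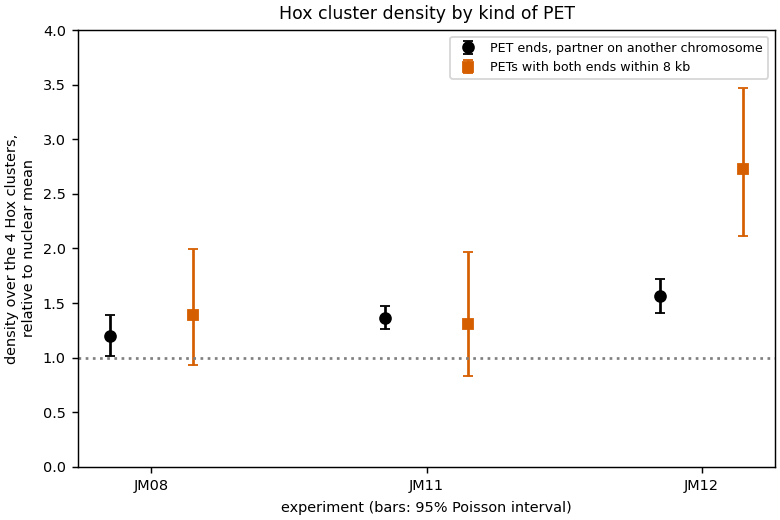
Density over the 4 clusters relative to the nuclear mean, for ends with a partner on another chromosome (circles) and for PETs with both ends within 8 kb counted once (squares), by experiment with 95% intervals. Short PETs in JM12 stand at 2.73, and the other 5 values lie between 1.19 and 1.56.

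PETs between chromosomes gave 80.4% of the ends in Hox clusters and 83.4% of all nuclear ends. Of 1442 PETs with an end in a cluster, 1254 joined different chromosomes, 118 had ends within 8 kb and 67 were over 1 Mb apart. At distances of 2 kb to 1 Mb there were 9. Of these, 6 spanned 2.20 to 3.10 kb and both ends lay in the same cluster, at Hoxd9, Hoxd10, Hoxd3, Hoxc8, Hoxa3 and beside Hoxa11. The other 3 were single PETs over 8 kb. Among them were Hoxb3 to Skap1, a signalling adaptor gene beside Hoxb, over 141 kb in JM11, and a site near Hoxa3 to Jazf1, a zinc finger gene, over 676 kb in JM11.

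With read-2 ends shuffled among the PETs of an experiment and linker, 1.18 PETs of 2 kb to 1 Mb were expected, so the observed number was 7.60 times that (3.47 to 14.4). The genome as a whole gave 7.96 (7.84 to 8.08), inside the Hox interval. From 8 kb up, 3 PETs stood against 1.17 expected, a ratio of 2.57 (0.53 to 7.51), and the genome gave 3.14. At this depth Hox contacts could not be told from chance ligation at 8 kb and over, nor from the genome. No PET joined 2 different clusters, against 0.136 expected, and a count of 0 allows up to 3.69 by the same interval.

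Partner ends of the 1254 PETs between chromosomes fell near genes as often as other such ends did. Within 2.5 kb of an autosomal protein-coding gene or inside it lay 48.6% (exact binomial 45.8 to 51.4) of them, and 48.9% of all ends of such PETs. By experiment the Hox share was 55.6%, 46.8% and 48.8%, against 50.5%, 46.7% and 52.0%. They hit 605 genes, 45 of them more than 1 time, and at most 4 times (Fars2 and Pcdh15, long genes of 420 and 1554 kb).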

How the data were processed

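Per the submitters' processing notes, reads were processed with Bowtie2 on build mm10, which is GRCm38. The sources used here do not state filters or how duplicates were handled. The deposited table holds positions, not counts: each row of the authors' list is a PET with its experiment, linker, and the chromosome and position of both ends, and other columns were not used. Ends on nuclear chromosomes were counted here over genes, 5 kb windows and start sites. Both ends of a short PET were counted, so intervals on ends are somewhat narrow. The reference length, 2722.2 Mb, is the largest deposited position of each chromosome, summed. The expected number of contacts was computed in closed form from the ends of each experiment and linker, leaving out PETs up to the minimum distance. The density and interval steps were run on simulated gene counts drawn from the same mean. The closed-form number was checked against shuffles of a part of the JM08 PETs. The counting of ends over genes, windows and start sites was not tested on simulated PETs. Python 3.11.15, numpy 2.4.6, pandas 2.3.3 and scipy 1.17.1 were used.

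The members, gene lists and CG classes were chosen with earlier results of these data known. Genes on X were left out of the lists. Results for some items are not reported here, though counts and medians include them. Otherwise values were given in full for the 2 highest and 2 lowest members of each cluster by summed density and any above or below the mean in every experiment. For the other lists they were given for up to 3 genes above in every experiment and for the lowest. Alternatives varied the flank, window, kind of PET, reference, duplicate handling, start site distance and the experiments included. Depth was 474466 to 1438852 nuclear PETs per experiment. With no library column, no test across libraries could be run.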

Additional observations from a re-analysis of the deposited data

How the results depend on the processing

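Of 112 alternative values for 18 results on clusters, genes, windows, contacts and start sites, 86 stayed within the interval of the main value, or within 1.5 times for a count. Where the main interval excluded 1, no alternative density or ratio crossed to the other side of 1. The order of the experiments did change with the reference. For single genes with no flank or 5 kb, 76 of 78 values stayed within the interval. Relative to the median 5 kb window with an end, the 4 clusters had 2.17 in JM08, 1.20 in JM11, 1.76 in JM12 and 1.33 summed. Relative to 100 kb on each side they had 1.14 in JM11, 1.36 in JM12 and 1.21 summed, and by cluster 1.37 (Hoxa), 1.10 (Hoxb), 1.17 (Hoxc) and 1.30 (Hoxd). PETs between chromosomes gave 1.56 in JM12. Ends of PETs within 8 kb gave 2.71 in JM12, 1.88 summed, 2.21 for Hoxa, 2.43 for Hoxc and 1.95 for Hoxd.

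Hox genes above the mean numbered 15 with no flank and 13 to 21 with an experiment left out: 14 without JM11, 13 without JM12. The share of all genes was not computed in these settings. In 10 kb windows 49.1% were above and 3.64% below the mean, and with windows shifted by 2.5 kb 0% were below. Contacts from 8 kb up gave 2.57 times the shuffled number. Contact ratios ranged from 6.80 to 8.56 with an experiment left out. Hox start sites had 1.13 without JM12 and 1.84 without JM11, and 1.69 in JM12 for the annotated starts of all 39 members. Only the read-1 end of each PET, start site distances of 0.5 and 2.5 kb, and the other start site alternatives were added after seeing the data. No paired analysis was possible because the deposited table does not name the library of a PET. Depth limits single genes, where differences inside the printed intervals could not be seen.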
